A study of Mus musculus with 8 samples.

Results

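The cytosolic ribosomal protein genes encode the proteins that, with ribosomal RNA, form the small (Rps) and large (Rpl) subunits of the ribosome. They were taken by gene symbol: Rpl or Rps followed by a digit, or Rplp0, Rplp1, Rplp2 or Rpsa, leaving out symbols that start with Rps6k and pseudogenes marked -ps. The rule found 66 genes with 84 probes, among 16593 named genes and 25697 probes on the array. The large subunit had 40 genes with 53 probes, and the small subunit had 26 genes with 31 probes. Of these, 64 genes with 82 probes encode ribosomal proteins. The other two genes match by name only: Rps19bp1 encodes a binding partner of Rps19, and Rps23rg1 is a retroposed gene derived from Rps23.

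RNA came from CD4+GFP+ natural regulatory T cells (nTreg) of B6.FoxP3-GFP mice, whose strain label is C57BL/6, and was hybridised as biotin-labelled cRNA to 8 single-colour bead arrays. In these reporter mice GFP marks cells that express FoxP3, and all 8 samples carry the reporter. There were 4 arrays titled G-CSF, the growth factor that mobilises blood stem cells from the marrow, and 4 arrays titled Naive, whose treatment label is Saline. No dose, time or age is given, and no label says whether replicates were different mice or repeats of one preparation, so the p-values rest on a spread between samples that could be technical. Neither slides nor scan days are given, and no batch could be examined.

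Nearly all ribosomal proteins are present in 1 copy per ribosome, and most of their mRNAs belong to the TOP class, named for a terminal oligopyrimidine run of C and T bases at the 5′ end that starts with a C. Translation of TOP mRNAs is controlled by the mTOR kinase pathway, so that ribosome production follows growth signals, as in T cells that leave rest. These mRNAs are among the most abundant in lymphocytes. A few members have a related gene copy, or paralogue, such as Rpl22l1 beside Rpl22 and Rps27l beside Rps27.

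The deposited table contradicts itself about the groups. A detection p-value states how often control probes are as bright as the probe, so within 1 array it can only fall as intensity rises. With the p-value column standing next to each intensity column, 3.76% to 9.31% of the steps ran against that order (tolerance 0.0001). With the p-value column placed next to the array of that replicate number in the opposite group, 0% did, for 8 of 8 arrays. Either kind of column may be the misplaced one. Intensity labels were kept here, and each direction below turns round if the intensities are under the wrong titles.

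Arrays titled G-CSF detected 10251 ± 239 probes and those titled Naive 10026 ± 420 (SD, n = 4 each; detection p under 0.01). Correlations between arrays lay between 0.947 and 0.993. G-CSF replicates 3 and 4 were brighter than the rest, with median raw intensities of 180.8 and 145 on an array, against 117.8 to 125.8 on the other 6. A probe is called measured below if detected on at least 4 of 8 arrays, whatever the group. All 8 regulatory T cell markers on the platform, including Foxp3, were detected on every array. Fewer markers of other cell types were measured: 1 of 4 for B cells, 1 of 8 for neutrophils, 2 of 5 for CD8 and NK cells, 3 of 5 for dendritic cells, 4 of 5 for monocytes and macrophages, 2 of 3 for erythroid cells and 0 of 2 for progenitors. Summed dendritic marker signal was 2815 to 4895 on G-CSF arrays and 2374 to 8181 on Naive arrays. Summed monocyte and macrophage signal was 1785 to 3137 on G-CSF and 1144 to 2297 on Naive arrays, and erythroid signal 561 to 1533 on G-CSF and 330 to 814 on Naive arrays. None of these markers was called, and the part of other cells in any result was not tested. In bulk RNA, fewer cells of a type and less RNA per cell cannot be told apart.

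No ribosomal protein probe passed the test between G-CSF and Naive cells. There were 69 measured member probes of 58 genes and 10205 measured probes in all. At an adjusted p under 0.05 (limma, Benjamini-Hochberg over 10205 probes), 0 of the 69 were called, and 224 of all measured probes were (2.20%, of which 97 higher and 127 lower in G-CSF cells). The smallest adjusted p of a member was 0.0805, for Rps15a. At an unadjusted p under 0.05 there were 7 members (10.1%), against 24.9% of all measured probes. Of these 7, 1 was higher in G-CSF cells, against a background of 12.7%, and 6 were lower, against 12.1%. The member shares lay below the background in both directions with quantile normalisation. With each array scaled to the median of its measured probes instead, 42 of 69 members (60.9%) had an unadjusted p under 0.05, above the 25.9% of all measured probes, so the side of the background on which members fall depends on the scaling.

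The log2 changes, as G-CSF minus Naive on quantile-normalised values, were small for most members. Their median was -0.07 (quartiles -0.19 and 0.01, range -0.88 to 0.59), and that of all measured probes was -0.01 (quartiles -0.24 and 0.24). There were 20 positive and 49 negative changes. With the brightest measured probe of each of the 58 genes, the median was -0.06, with 18 positive and 40 negative. By subunit, the median was -0.09 over 42 large subunit probes and -0.07 over 27 small subunit probes. The per-array median over members was 15.14, 15.10, 14.82 and 15.001 on G-CSF arrays, against 14.99, 15.07, 15.15 and 15.18 on Naive arrays. These values overlap, and the G-CSF and Naive means of 15.01 ± 0.14 and 15.10 ± 0.09 (SD, n = 4 each) differ by less than the SD within groups, 0.119.

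The 95% interval of the quantile-normalised change lay within 0.5 on the log2 scale for 43 of 69 probes and within 1 for 64, and the median distance from the change to the end of its interval was 0.31. Of those 43 probes, 37 had a mean log2 intensity of at least 14. At a mean above 15, raw intensities did not follow the brightness of an array, and from 14 to 15 they followed it in part (values below). A narrow interval in this bright range describes the spread of normalised values and is no bound on the amount of mRNA.

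**Figure D1:**
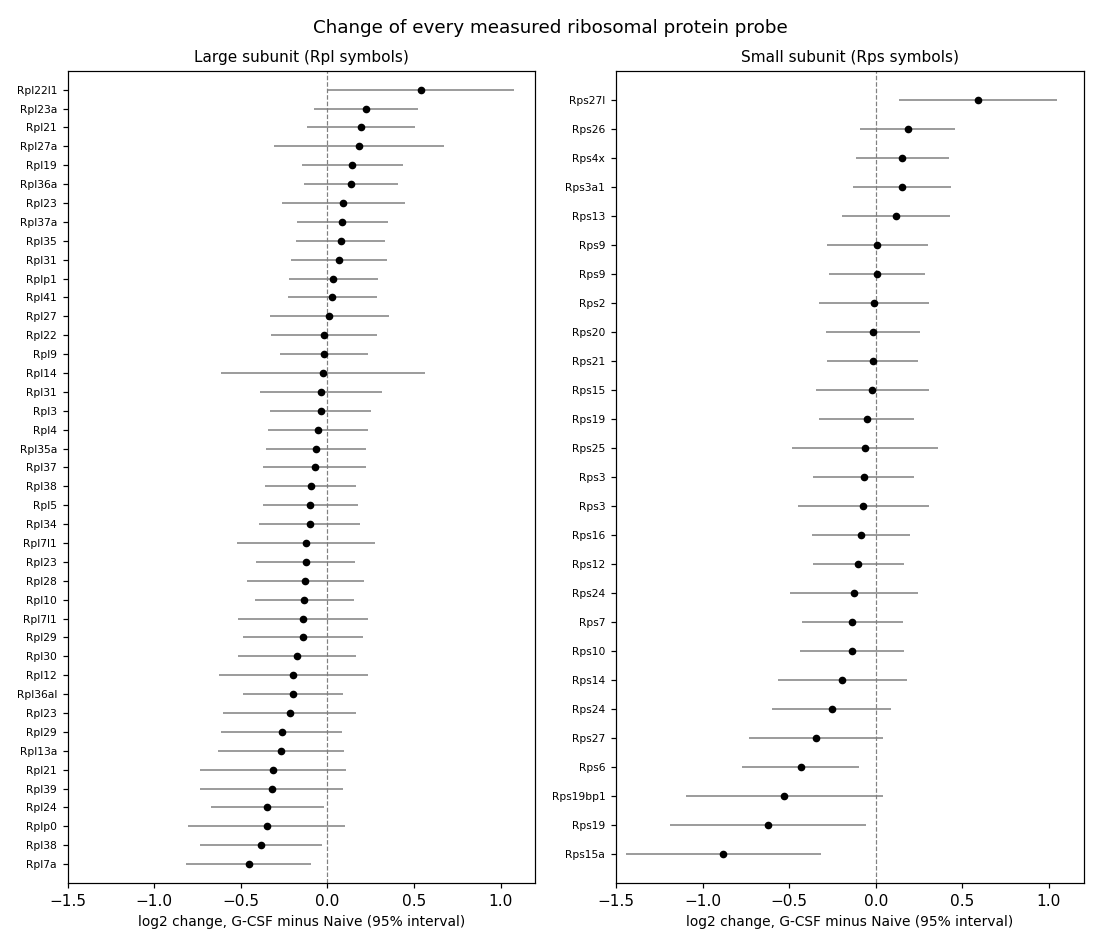
Each point is the log2 change (G-CSF minus Naive, n = 4 arrays each) of 1 of the 69 measured ribosomal protein probes, ordered within its subunit, and its line is the 95% interval from limma. Most points lie near 0, the lowest is Rps15a at -0.88 and the highest is Rps27l at 0.59.

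Complete separation of the 4 values from the other 4 was seen for 6 members. G-CSF arrays were all above Naive arrays for 5 of 69 probes, those of Rps27l, Rps26, Rps3a1, Rpl36a and Rpl35, against 6.78% of all measured probes. They were all below for 1 probe, that of Rps15a, against 6.85%. For Rpl35, a large subunit protein, the separation came with a change of only 0.08.

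Rps15a, a small subunit protein, had the most negative change of the members. Its log2 intensity was 6.83, 7.53, 6.90 and 6.89 on G-CSF arrays, against 8.67, 7.64, 7.60 and 7.76 on Naive arrays. The groups did not overlap, although G-CSF replicate 2 came close to the lower Naive values and Naive replicate 1 stood far above the rest. The change was -0.88 ± 0.25 (SE; limma adjusted p = 0.0805). The probe was dim, at 7.04 ± 0.33 in G-CSF and 7.92 ± 0.51 in Naive cells (SD, n = 4 each), which is near the lower end of the measured range.

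Rps6, the small subunit protein that S6 kinases phosphorylate downstream of mTOR, was bright on every array. Its log2 intensity was 14.92, 14.56, 14.68 and 14.36 on G-CSF arrays, against 14.88, 15.05, 15.21 and 15.12 on Naive arrays. Only G-CSF replicate 1 reached into the Naive range, and only Naive replicate 1 into the G-CSF range. The change was -0.43 ± 0.15 (SE; limma adjusted p = 0.123).

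Among large subunit members the most negative change was that of Rpl7a, which binds ribosomal RNA. Its log2 intensity was 12.97, 12.54, 12.76 and 12.30 on G-CSF arrays, against 12.96, 13.05, 13.26 and 13.12 on Naive arrays. As for Rps6, the overlap came from replicate 1 of both groups. The change was -0.45 ± 0.16 (SE; limma adjusted p = 0.128). Rpl24, which reaches across to the small subunit and whose mutation causes the Belly spot and tail phenotype in mice, had 14.60, 14.53, 14.17 and 14.21 on G-CSF arrays, against 14.57, 14.83, 14.80 and 14.70 on Naive arrays. Its replicates 3 and 4 of the G-CSF group were the lowest of all 8 arrays, and its change was -0.35 ± 0.15 (SE; limma adjusted p = 0.181), or -0.18 without them.

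Rps27, a zinc finger protein of the small subunit, had 15.46, 15.44, 14.71 and 15.08 on G-CSF arrays, against 15.54, 15.44, 15.55 and 15.55 on Naive arrays. Rpl39, a small protein that lines the tunnel through which the new chain leaves the ribosome, had 15.73, 15.76, 15.10 and 15.03 on G-CSF arrays, against 15.74, 15.71, 15.69 and 15.77 on Naive arrays. Both were low on G-CSF replicates 3 and 4 only, while replicates 1 and 2 lay at or near the Naive values. The changes were -0.35 ± 0.18 for Rps27 and -0.32 ± 0.19 for Rpl39 (SE; limma adjusted p = 0.249 and 0.305). Without those 2 arrays they were -0.08 and 0.02.

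The stalk, the arm of the large subunit that recruits elongation factors, is built from Rplp0, Rplp1 and Rplp2. Rplp0 had 10.51, 10.30, 9.93 and 10.03 on G-CSF arrays, against 10.27, 11.06, 10.56 and 10.28 on Naive arrays, with a change of -0.35 ± 0.21 (SE; limma adjusted p = 0.306). The 2 highest G-CSF arrays lay within the Naive range. The change was -0.18 without Naive replicate 2, -0.14 without G-CSF replicates 3 and 4, and -0.03 with scaling to the median of all probes. Rplp1 was near the top of the intensity range on every array, at 15.86 ± 0.05 in G-CSF and 15.83 ± 0.02 in Naive cells (SD, n = 4 each), a change of 0.03. On all 8 arrays the Rplp2 probe was not well above background.

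Other members with a known role outside or late in ribosome assembly had changes between -0.27 and 0.18 on their brightest probes with quantile normalisation. These 10 genes had -0.46 to -0.01 with scaling to the median of all probes and -0.82 to -0.37 with scaling to the measured probes, and most lie at the top of the intensity range. Rpl5, which joins the 5S RNA and can bind the p53 inhibitor Mdm2, had a change of -0.10 (95% interval -0.37 to 0.18). Rpl10, which joins the large subunit late, had -0.13, and Rpl3 had -0.04 (intervals -0.42 to 0.15 and -0.33 to 0.25). Rps3, also known as a partner of NF-kB in T cells, had -0.07 on both of its probes. Of the genes mutated in human Diamond-Blackfan anaemia, a failure of red cell production, Rps19 had -0.05, Rps24 -0.13, Rpl35a -0.07 and Rps26 0.18 on their brightest probes. Rpl38, needed for the translation of Hox mRNAs in mouse embryos, had -0.10, and Rpl13a, often used to normalise RNA assays, had -0.27. None of these was called, and on the brightest probes the adjusted p-values from limma ran from 0.329 for Rpl13a to 0.874 for Rpl3. The dimmer probes of Rps19, Rpl38 and Rps24 had -0.62, -0.38 and -0.25 (limma adjusted p = 0.169, 0.174 and 0.324).

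At the positive end, Rps27l had the largest change. It is a paralogue of Rps27 that p53 can induce in human cells. Its log2 intensity was 13.29, 13.26, 14.03 and 14.02 on G-CSF arrays, against 12.91, 13.23, 12.94 and 13.16 on Naive arrays. All 4 G-CSF values were higher, replicates 1 and 2 by little and replicates 3 and 4 by much. The change was 0.59 ± 0.21 (SE; limma adjusted p = 0.120), and 0.22 without replicates 3 and 4. Its raw intensities were 9398, 8636.1, 27338.3 and 19543.1 on G-CSF arrays, against 6714.5, 8324.2, 5756.9 and 7828.9 on Naive arrays. The G-CSF arrays were all above the Naive arrays here, but they were also brighter as whole arrays. The upper quartile of raw intensity over the measured probes was 1635 to 3332 on G-CSF arrays and 1239 to 1577 on Naive arrays. G-CSF replicates 3 and 4 were the brightest, at 2.07 and 1.44 times the other 6 arrays in the median measured probe.

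Rpl22l1, the paralogue whose mRNA Rpl22 represses in mouse cells, had 8.86, 8.56, 9.68 and 9.63 on G-CSF arrays, against 8.85, 8.53, 8.67 and 8.53 on Naive arrays. Here too replicates 3 and 4 of the G-CSF group stood apart, and the change was 0.54 ± 0.24 (SE; limma adjusted p = 0.202), or 0.07 without them. Rpl22 itself, which is needed for alpha-beta T cell development in mice, had 11.17, 11.23, 11.26 and 11.12 on G-CSF arrays, against 11.003, 11.47, 11.26 and 11.12 on Naive arrays. The Rpl22 values overlapped throughout, and the change was -0.02 ± 0.14 (SE; limma adjusted p = 0.945).

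**Figure D2:**
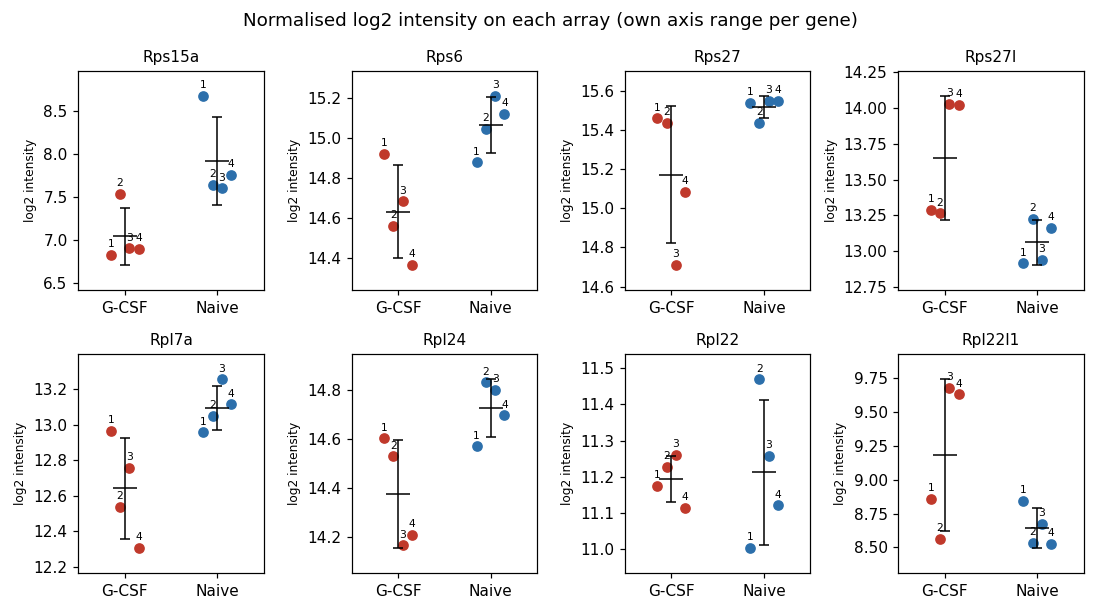
Log2 intensity of 8 ribosomal protein genes on each array after normalisation, with 1 point per array, G-CSF left of Naive, and the mean ± SD drawn beside the points (n = 4 each). G-CSF replicates 3 and 4 are low for Rps27 and Rpl24 and high for Rps27l and Rpl22l1, while Rpl22 overlaps between groups.

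A paralogue and its partner were also compared within each array, where a scaling of the whole array cancels but a difference that depends on the level of a probe does not. For 3 pairs both genes were measured. The difference Rps27l minus Rps27 lay between -2.17 and -0.68 on G-CSF arrays and between -2.62 and -2.21 on Naive arrays, and the groups differed by 0.94 on the log2 scale. Rpl36al minus Rpl36a lay between 0.05 and 0.36 on G-CSF arrays and between 0.38 and 0.67 on Naive arrays, a difference of -0.33. For each of these pairs the groups did not overlap, and the 2-sided exact permutation p was 0.0286, the smallest that 4 against 4 arrays allow (0.0429 adjusted over the 3 pairs). The pairs were chosen with earlier results of these data known. The adjustment over 3 pairs does not cover that choice, so these p-values only describe the separation. Rpl22l1 minus Rpl22 differed by 0.56, with a 2-sided exact permutation p of 0.20, adjusted 0.20. Without G-CSF replicates 3 and 4 the differences were 0.29, -0.21 and 0.08 for the Rps27, Rpl36a and Rpl22 pairs. On replicate 3 the raw log2 ratio to the other 6 arrays was 1.81 for Rps27l and -0.16 for Rps27. Rps27 lies in the band above 15, where the median of such ratios over measured probes, members included, was near 0. The part of this in the pair difference was not tested.

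Rpl36a and Rpl36al encode near-identical large subunit proteins. Rpl36a had 14.39, 14.36, 14.35 and 14.53 on G-CSF arrays, against 14.32, 14.15, 14.29 and 14.32 on Naive arrays, and Rpl36al had 14.75, 14.72, 14.54 and 14.58 on G-CSF arrays, against 14.70, 14.78, 14.96 and 14.94 on Naive arrays. Rpl36a did not overlap between groups and Rpl36al did. The changes were 0.14 and -0.20 (limma adjusted p = 0.506 and 0.361), so neither gene passed the test by itself. Ribosomal protein genes have many near-identical copies and pseudogenes in the genome, and a probe may also bind their RNA.

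The remaining positive changes were small. Rpl23a, at the tunnel exit where the signal recognition particle docks, had 15.18, 15.23, 15.55 and 15.50 on G-CSF arrays, against 15.16, 15.07, 15.15 and 15.18 on Naive arrays, a change of 0.22 (limma adjusted p = 0.326). Rps26, at the mRNA exit channel, had 15.40, 15.47, 15.55 and 15.68 on G-CSF arrays, against 15.31, 15.39, 15.31 and 15.36 on Naive arrays, a change of 0.18 (limma adjusted p = 0.374). Replicates 3 and 4 were again the highest of the G-CSF arrays for both. Rpl7l1, a paralogue of Rpl7, had -0.12 on its brighter probe. Rpl21, Rpl27a, Rps4x and Rps3a1 had changes of 0.19, 0.18, 0.15 and 0.15. Several of these signs turned with the scaling: to the median of all probes, Rps26 had -0.06 and Rps4x -0.21, and to the measured probes, Rps26 had -0.41, Rps4x -0.57, Rpl23a -0.33 and Rps3a1 -0.04. Of 30 named members, 5 and 6 changed sign under these scalings, and none of them was called in either direction. Rps19bp1, the binding partner that is no ribosomal protein, had -0.53 ± 0.26 (SE; limma adjusted p = 0.230).

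The annotated transcription starts of these genes carry the pyrimidine runs of TOP mRNAs more often than those of other genes. RefSeq promoters (GRCm38.p6) were matched by gene identifier for 57 of the 66 genes, which have 68 annotated starts. A C at the start followed by at least 4 more C or T bases, read on the transcribed strand alone, was found at 11 of 68 starts (16.2%) and at 823 of all 32851 starts (2.51%). A run of at least 8 C or T bases within the 30 bases around the start (10 before it and 20 from it) was found at 32.4% of member starts and 11.2% of all. For the 10 measured genes with a run of 5 or more that begins at the annotated start, the median change was -0.11 (range -0.88 to 0.08, 9 negative), and for the 40 measured genes without one it was -0.06 (26 negative). A match describes the letters at the annotated start, which may differ from the start used in these cells.

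The windows of the genes with the clearest array patterns above are shown 5′ to 3′ on the strand of the gene, with the longest unbroken run of C and T in capitals. They show how the run differs between genes of similar change, such as Rpl7a and Rpl24, and between paralogues.
Rps15a, chr7:118116128-118116157, minus strand: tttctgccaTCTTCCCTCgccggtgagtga
Rps6, chr4:86857348-86857377, minus strand: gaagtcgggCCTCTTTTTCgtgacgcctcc
Rps27, chr3:90213629-90213658, minus strand: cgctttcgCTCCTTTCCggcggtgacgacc
Rps27l, chr9:66946076-66946105, plus strand: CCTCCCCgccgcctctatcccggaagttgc
Rpl7a, chr2:26910797-26910826, plus strand: CTCTTCTTTCTTTCTCCagcagccgagcaa
Rpl24, chr16:55966265-55966294, plus strand: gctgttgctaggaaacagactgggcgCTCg
Rpl22, chr4:152325716-152325745, plus strand: CCTgggaaaagcaatagctggccgatcgtt
Rpl22l1, chr3:28805498-28805527, plus strand: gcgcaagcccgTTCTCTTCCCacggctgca
The run was 9 bases long for Rps15a, 10 for Rps6, 9 for Rps27, 17 for Rpl7a, 3 for Rpl24, 3 for this start of Rpl22 and 10 for Rpl22l1. Rps27l had 7 at this start and 4 at its other annotated start, and Rpl22 had 5 at its other annotated start.

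Ribosomal protein probes made up much of the top of the intensity range. Of the 100 brightest measured probes, 41 were members. A mean log2 intensity of at least 14 was reached by 188 measured probes, of which 45 were members (23.9%). In this bright band 2 of 45 members (4.44%) had an unadjusted p under 0.05, against 9 of the 143 other probes (6.29%). These sets are not matched in level, with median means of 15.48 for the members and 14.61 for the others. The 24 dimmer members had 5 (20.8%), against 25.2% of all measured probes under 14. Bright probes in general had a low share, members or not.

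In the raw intensities, the median of the bright members did not follow the rest of G-CSF replicates 3 and 4. Relative to the mean of the other 6 arrays, the median raw ratio on replicate 3 was 1.08 for members at or above 14, 1.93 for dimmer members and 2.07 for all measured probes. On replicate 4 these ratios were 0.957, 1.35 and 1.44. Other probes at or above 14 stood between, at 1.59 and 1.24. For the 76 measured probes with a mean log2 from 15 to 16, members included, the median raw log2 ratio was 0.02 and -0.08. Many of these 76 are members, since the median level of the bright members was 15.48. The ratio of the other probes in this band alone was not computed. For the 112 probes from 14 to 15 it was 0.81 and 0.39, and for the 1489 probes from 10 to 11 it was 1.18 and 0.64. The highest raw intensities of the 8 arrays lay between 59074.6 and 64541, and the files carry no mark for a saturated bead.

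**Figure D3:**
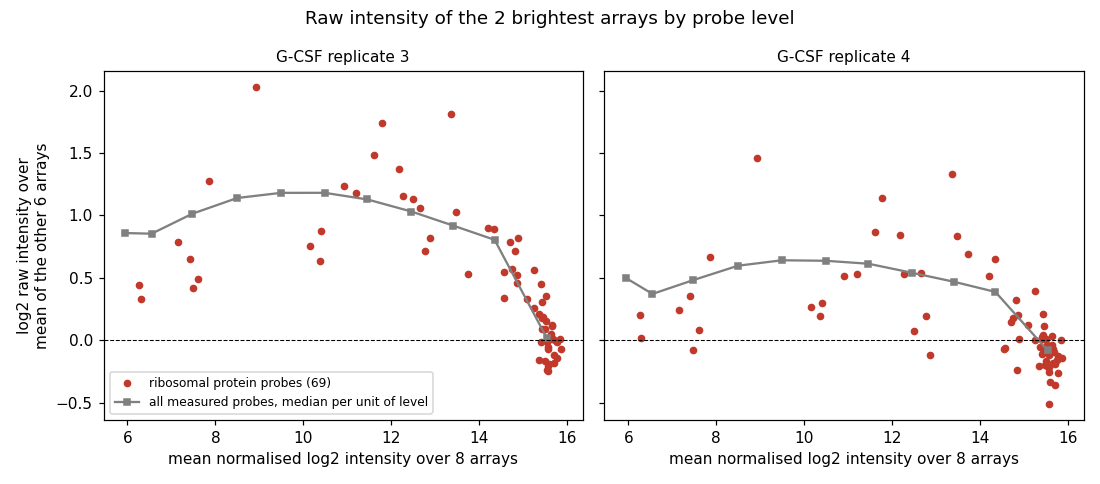
Log2 raw intensity of G-CSF replicate 3 and of replicate 4 over the mean of the other 6 arrays, against the mean log2 level of the probe. Red points are the 69 measured ribosomal protein probes and the grey line is the median of all measured probes, members included, per unit of level. It drops near 0 above a level of 15 on both arrays.

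The size of the members' difference moved with the scaling of the arrays. With quantile normalisation the members' median change was -0.07 and that of all measured probes -0.01. With each array scaled to the median of all probes, the median of all measured probes shifted to 0.29 and that of members was -0.21. With scaling to the median of the measured probes, these were -0.07 and -0.57. Relative to the median of all measured probes, members stood at -0.07 under quantile normalisation and at -0.50 under median scaling, with 49 and 63 of 69 members below that median. The median scalings differ only by a constant on each array, so this relative position is the same in both by construction. The bright members stood at -0.29 and -0.65 under these median scalings, and the dim members at 0.11 and -0.25. The share of higher calls among all called probes was 43.3% with quantile normalisation, 94.6% with all probes and 26.8% with the measured probes.

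**Figure D4:**
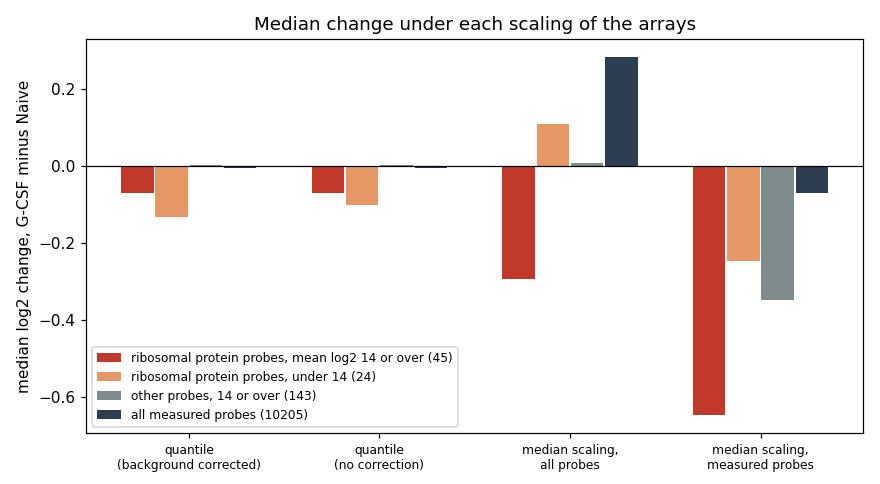
Median log2 change (G-CSF minus Naive) of ribosomal protein probes with a mean log2 of at least 14 or under 14, of other probes of at least 14 and of all measured probes, as bars under each of 3 scalings of the arrays, with quantile normalisation shown with and without background correction. Members lie 0.07 below all probes with quantile normalisation and 0.50 below with median scaling. The bright members have a higher median level (15.48) than the other bright probes (14.61).

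Spread also differed between groups. The SD over the 4 G-CSF arrays exceeded that over the 4 Naive arrays for 46 of 69 members (66.7%), against 54.6% of all measured probes. Among bright members this held for 36 of 45 (80%), with a median SD of 0.149 in G-CSF and 0.0590 in Naive arrays. Among other bright probes, whose median level was lower (14.61 against 15.48), it held for 103 of 143 (72.0%). G-CSF replicate 3 was the lowest of the 8 arrays for 22 members and the highest for 13. G-CSF replicate 4 was the lowest for 13 and the highest for 10.

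The median correlation between 2 members over the 8 arrays was 0.07, and between 2 of all measured probes 0.00, a description over arrays that share their normalisation. With each member left out of the median it was set against, 29 of 69 members (42.0%) had a correlation above 0.5 with the members' median on each array, against 21.7% of the 10136 other measured probes. There were 9 members below -0.5 (13.0%), against 19.8%. The highest were Rpl35a (0.88) and Rpl24 (0.87), and the lowest Rplp1 (-0.90), Rpl22l1 (-0.88) and Rpl23a (-0.82). Outside the members, log2 intensity was most like the members' median over the 8 arrays for Babam1 (0.96), Fam3c, Lonp2, Mien1 and Rhobtb2 (0.95 each). Next came Tnfrsf9 and Tmem256 (0.94 each), along with 1 probe that has no single gene symbol (0.94).

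For 10 genes more than 1 probe was measured. The changes had the same sign on all probes in 7 of them, and in 9 the dimmest probe was more negative than the brightest. That count includes near ties, with gaps of 0.001 for Rps3, 0.003 for Rps9 and 0.02 for Rpl7l1. The largest gap was that of Rps19, at -0.05 on a probe with a mean of 15.74 and -0.62 on a probe with a mean of 6.30. The dim Rps19 probe was detected on 1 G-CSF and 3 Naive arrays. Rpl38 had -0.10 and -0.38 on its bright and dim probes, Rpl21 had 0.19 and -0.32, and Rpl23 had -0.13, -0.22 and 0.09.

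Of the 84 member probes, 67 were detected on all 8 arrays, 11 on none, and 15 were not measured by the rule of 4 arrays. There were 8 genes without a measured probe. Rplp2, Rpl17, Rps23, Rpl39l, Rpl3l and Rps23rg1 were detected on 0 arrays. Rpl6 was detected on 0 G-CSF and 1 Naive array, and 1 of 2 probes of Rpsa, also known as the laminin receptor, on 2 G-CSF and 0 Naive arrays. Rpl39l and Rpl3l are paralogues known from testis and from muscle, while Rplp2, Rpl17, Rps23, Rpl6 and Rpsa belong to the ribosome of most cells. A probe at background sets no bound on their mRNA, since a silent probe can stand beside a bright one of the same gene. For Rpl37, a probe detected on 0 arrays stood beside a probe at 15.66 in G-CSF and 15.74 in Naive cells. Rpl7, Rpl11, Rpl32, Rps18 and Rps27a were not analysed here. Fau, which encodes the small subunit protein fused to a ubiquitin-like domain but falls outside the symbol rule, had a change of 0.12 (limma adjusted p = 0.555), which was -0.18 and -0.54 with scaling to the median of all and of the measured probes.

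Genes that work with the ribosomal proteins also gave 0 calls in each list, where a background of 2.20% leaves few calls for lists of this size. At an unadjusted p under 0.05 no list of more than 4 measured genes exceeded the 24.9% of all measured probes by more than 1 percentage point. Of elongation factors and other TOP mRNAs, 16 of 17 on the array were measured, with a median change of 0.02 and 2 higher and 2 lower at that p (25%). Eef1a1, which brings aminoacyl-tRNA to the ribosome, had 8.70, 8.20, 9.76 and 9.51 on G-CSF arrays, against 8.17, 8.46, 7.94 and 8.10 on Naive arrays, a change of 0.87 ± 0.30 (SE; limma adjusted p = 0.118). On each Naive array this probe lay below the median of all measured probes (9.17). Whether it reports the main mRNA of the gene was not tested. Hnrnpa1, a splicing protein with a TOP mRNA, had 11.75, 11.21, 11.26 and 10.74 on G-CSF arrays, against 12.39, 11.78, 11.88 and 12.10 on Naive arrays, a change of -0.80 ± 0.22 (SE; limma adjusted p = 0.0704). Hnrnpa1 did not overlap between groups, while Eef1a1 was high on G-CSF replicates 3 and 4 and had a change of 0.28 without them.

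Mitochondrial ribosomal proteins, which form the separate ribosome of mitochondria, were measured for 70 of 76 genes. Their median change was -0.02, with 4 higher and 9 lower at that p (18.6%), and Mrps11 and Mrps5 had -0.54 and -0.47 (limma adjusted p = 0.0810 and 0.0920). Of ribosome assembly and nucleolar genes, 31 of 38 were measured, with a median of -0.03, 4 higher and 1 lower (16.1%). In that list the methyltransferase Nop2 had 0.52 (0.27 without G-CSF replicates 3 and 4) and the snoRNP core protein Nop56 had -0.43 (limma adjusted p = 0.106 and 0.105). Of RNA polymerase I genes, 13 of 15 were measured, with a median of -0.05, 2 higher and 1 lower (23.1%), and the subunit gene Cd3eap had 0.46 (limma adjusted p = 0.155). Ubtf, the factor that opens ribosomal RNA genes for this polymerase, had 10.70, 10.79, 10.91 and 11.10 on G-CSF arrays, against 10.33, 10.18, 10.30 and 10.52 on Naive arrays, a change of 0.54 ± 0.14 (SE; limma adjusted p = 0.0651) with no overlap.

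Of genes that control ribosomal protein mRNA, 16 of 22 were measured, with a median of 0.03, 2 higher and 0 lower at an unadjusted p under 0.05 (12.5%, below the 24.9% background). These were Eif4ebp2, a translational repressor that mTOR inactivates, at 1.17 ± 0.38, and Mtor itself at 0.68 ± 0.23 (SE; limma adjusted p = 0.0989 and 0.107). Without G-CSF replicates 3 and 4, Eif4ebp2 had 0.51. Mtor had 8.36, 8.54, 8.59 and 8.59 on G-CSF arrays, against 8.46, 7.30, 7.57 and 8.04 on Naive arrays, so the groups overlapped through Naive replicate 1. The 3 measured genes of the 5S particle and p53 list had 0 at an unadjusted p under 0.05 in either direction, and Cdkn1a, a p53 target, had -0.67 (limma adjusted p = 0.249), or -0.29 without Naive replicate 1. Of the paralogue list, 4 of 6 genes were measured, with a median of 0.21, 1 higher and 0 lower.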

How the data were processed

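RNA of 8 samples (4 titled G-CSF, 4 titled Naive) was measured on 1-colour bead arrays. Per the file headers, 1 deposited table gives non-normalised intensities and detection p-values of each probe. The submitters' processing notes name GenomeStudio, with no version. A second deposited table holds log2 values, and how they were made is not given in the sources used here. Quantile normalisation of the intensities, with each probe centred on its median, gave the same log2 values (SD of the difference at most 0.00446 on an array). This centring removes a probe's level, and it served as an alternative.

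The neqc function of limma 3.58.1 (R 4.3.3) subtracted background by normexp, guided by the detection p-values, then quantile normalised the arrays and took log2 after adding an offset of 16. P-value columns were assigned to the intensities whose order they follow, which sets no sample's group. Probes needed a detection p under 0.01 on at least 4 of 8 arrays. Groups were compared with lmFit and eBayes, 2-sided, Benjamini-Hochberg over 10205 probes, called at an adjusted p under 0.05, after the code was tested on simulated data. The number of arrays limits the precision. Of the probes, 23978 had 1 gene symbol. The other 1719 had no single symbol, since a probe annotated with several was treated as unnamed and could not be a member. All 84 member probes matched RefSeq by Entrez identifier, with 0 symbols changed.

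Named genes were the 4 largest positive and negative changes in each subunit over the brightest measured probes, every called member, and a set fixed by role (stalk, 5S particle, normalisers, paralogue pairs, genes mutated in anaemia and others). In the other lists, the genes named have the smallest p-values. Rpl35, Rpl17, Rpl23, Rpl37, Rpl6, Rps9 and Rps23 fall outside that rule and were named after their values were seen. Rps23rg1 also falls outside it and was named because it matches by name only. Members, lists and paralogue pairs were chosen with earlier results of these data known. Alternatives were other background corrections, scalings, filters, variance models, array weights, a replicate block, each array left out, the p-value columns as placed, the deposited log2 table, the members without Rps19bp1 and Rps23rg1 (an alternative added after seeing the data), and G-CSF replicates 3 and 4 left out together.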

Additional observations from a re-analysis of the deposited data

Results flagged for a closer look

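Of 60 groups of 4 arrays examined for the named members, 6 held 1 array whose gap to the nearest other array took up a larger part of the group's range than Dixon's 95% critical value allows. Normally distributed values give about 1 in 20. That rate is not the chance rate here, since many named members were chosen for their large changes. For Rps15a, G-CSF replicate 2 stood at 7.53, with the other G-CSF arrays from 6.83 to 6.90, and Naive replicate 1 stood at 8.67, with the other Naive arrays from 7.60 to 7.76. For Rps3a1, G-CSF replicate 4 stood at 13.77 and the other G-CSF arrays from 13.44 to 13.48. For Rpl10, G-CSF replicate 3 stood at 15.27 and the other G-CSF arrays from 15.54 to 15.58. For Rps27, Naive replicate 2 stood at 15.44 and the other Naive arrays from 15.54 to 15.55. For Rpl38, Naive replicate 2 stood at 15.68 and the other Naive arrays from 15.77 to 15.78.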

How the results depend on the processing

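The median of members stayed below 0 under every alternative run, and 0 members were called under all but 2 of them. Array weights called 2 members higher and 13 lower, where 37.0% of all measured probes were called, with 20 members at an unadjusted p under 0.05 (29.0%, all measured probes 48.3%). Leaving out 1 array gave 0 higher and 0 to 1 lower calls, the 1 being Rps19bp1 (-0.78, limma adjusted p = 0.0409) without Naive replicate 1. It gave 1 to 12 members at an unadjusted p under 0.05 (1 without G-CSF replicate 4, 12 or 17.4% without G-CSF replicate 1, where all measured probes had 15.6% and 29.1%) and 7 to 18 without overlap (18 or 26.1% without Naive replicate 1, all measured probes 28.8%). Without G-CSF replicates 3 and 4, 0 members had an unadjusted p under 0.05, 12 did not overlap (17.4%, all measured probes 23.9%), and 0 of all measured probes were called (14.2% at an unadjusted p under 0.05). Scaling to the median of all probes gave medians of -0.21 (all members) and -0.29 (small subunit). Scaling to the measured probes gave -0.57, with -0.46 for the large and -0.65 for the small subunit, 42 members at an unadjusted p under 0.05 (60.9%, all measured probes 25.9%) and 10 without overlap (14.5% and 13.8%). An intensity trend in eBayes gave 11 at that p (15.9%, all measured probes 24.7%). Over the alternatives the Rps15a change ran from -1.04 to -0.56 and that of Rps27l from 0.22 to 0.78. Calls over all measured probes ranged from 0 to 3776. Whether equal replicate numbers pair samples could not be decided. Correlations of same-numbered deviations were -0.12, -0.02, 0.18 and 0.08, and those of differently numbered ones ran from -0.29 to 0.31. With 4 arrays in each group such values cannot exclude a pairing. With the number as a block, 0 members and 4 of all measured probes were called, 6 members had an unadjusted p under 0.05, and Rps15a had an adjusted p of 0.112. The 7 lists of other translation genes and paralogues gave 54 calls with array weights, 7 with scaling to the median of all probes, 3 without G-CSF replicate 1, 6 without Naive replicate 1, and 0 under each other alternative. The cause of these differences was not tested. Signal over background limits the dim probes, such as those of Rps15a and Rps19.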
